A study of Arabidopsis thaliana with 11 samples.

Results

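The genes that make and break down the hormone abscisic acid (ABA) were followed through roots of well-watered and droughted Arabidopsis thaliana. The set held 10 genes of 33341 in the count files, chosen by gene identifier: 6 of synthesis (NCED3, NCED5, NCED9, ABA1, ABA2 and AAO3) and 4 of catabolism (CYP707A1 to CYP707A4). RNAseq was available for 11 root samples in 4 groups. These were BRL3ox roots after 5 days without water (replicates 1, 2 and 3), BRL3ox roots under normal watering (replicates 1 and 3), WT roots after the same drought (replicates 1, 2 and 3) and watered WT roots (replicates 1, 2 and 3). WT was Col-0. BRL3ox was a line that carries the brassinosteroid receptor gene BRL3, fused to GFP, under the constitutive 35S promoter. All plants spent 7 days on plates and 16 days in soil before the treatment (16 h light and 8 h dark at 22 °C), and roots were lifted from soil at an age of 28 days, rinsed and frozen. The labels call the samples biological replicates and do not say how many plants each one pooled. The second replicate of watered BRL3ox roots was not used here.

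ABA is cut out of carotenoids. In the plastid, the zeaxanthin epoxidase ABA1 makes the epoxycarotenoids that the NCED dioxygenases cleave to xanthoxin, the committed step of the pathway. The short-chain dehydrogenase ABA2 and the aldehyde oxidase AAO3 then finish the hormone in the cytosol. The CYP707A cytochromes P450 hydroxylate ABA, which turns over to phaseic acid, and their transcripts are known to follow water loss, rewatering and ABA itself. The level of the hormone is therefore set between cleavage and hydroxylation.

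Libraries held 18610736 to 22817390 counts on genes. Levels are given as CPM, counts relative to the library size after scaling by the trimmed mean of M-values, and as RPKM, the same CPM per kilobase of exon, wherever genes are compared with each other. BRL3 itself lay at 2447 to 3180 CPM in BRL3ox drought roots, 974 and 1652 CPM in BRL3ox control roots, 44.8 to 70.8 CPM in WT drought roots and 59.2 to 64.8 CPM in WT control roots, as the labels require. All 6 root marker genes (CASP1, COBL9, SHR, SUC2, CESA7 and PHO1) had at least 10 counts in each of the 11 libraries. Their summed level was 572 to 724 CPM in BRL3ox drought, 839 and 943 CPM in BRL3ox control, 521 to 608 CPM in WT drought and 738 to 833 CPM in WT control roots. With drought, 1 was called higher and 3 lower in BRL3ox and 1 lower in WT, and 1 was called lower in BRL3ox than in WT in drought. Their part in the drought differences of the members was not tested. The summed level of 8 leaf photosynthesis transcripts was 54.6 to 69.3 CPM in BRL3ox drought, 10.5 and 108 CPM in BRL3ox control, 16.6 to 152 CPM in WT drought and 8.11 to 296 CPM in WT control roots, with replicate 2 of WT control at the top. By edgeR 0 of the 7 tested were called in any comparison, and by DESeq2 0, with 0 to 2 at an unadjusted p under 0.05. In bulk roots, fewer cells of a type and less RNA per cell cannot be told apart.

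In these roots CYP707A1 and CYP707A3, the abundant hydroxylase transcripts, rose with drought in both genotypes. None of the 5 synthesis members tested was called in the main edgeR fit, which has no replicate block. An edgeR fit with such a block called NCED3 in both genotype comparisons. NCED2, an NCED gene outside the set, was called higher with drought in both genotypes (log2 2.94 in BRL3ox and 2.59 in WT). A gene was called where edgeR's quasi-likelihood test gave a Benjamini-Hochberg adjusted p under 0.05 over 20718 genes and the fold change exceeded 1.5. Of the 9 tested members, 7 had at least 10 counts in every library. CYP707A2 and CYP707A4 did not: they entered the test only through the drought libraries in which they were high, so that their calls with drought, and that of CYP707A4 between genotypes in drought, were favoured by the filter and are described from their counts further on. With drought, 2 of the 7 were called higher in BRL3ox (CYP707A1 and CYP707A3) and 0 lower, where 16.1% of all genes were called in either direction and 9.14% higher. The same 2 of 7 were called higher in WT and 0 lower, where 12.4% of all genes were called in either direction and 7.54% higher. Over all 9 tested the numbers were 4 and 3. Between genotypes in drought 0 of the 7 were called, with NCED3 at an unadjusted p under 0.05 and called by DESeq2, where 3.51% of all genes were called. Only CYP707A4 was called there over all 9. In control conditions 1 was called (CYP707A1, lower in BRL3ox), where 0.772% of all genes were, a share that rests on 1 gene. There too NCED3 was at an unadjusted p under 0.05 by edgeR and was called by DESeq2. None of the 9 passed the test of a different drought response in the 2 genotypes (unadjusted p under 0.0025), which 0.951% of all genes did. At an unadjusted p under 0.05 there were 2 such members, CYP707A1 and CYP707A4, and DESeq2 called 1, CYP707A1. The filter favoured the CYP707A4 value here as well. The share of all genes at that unadjusted p is not given.

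**Figure D1:**
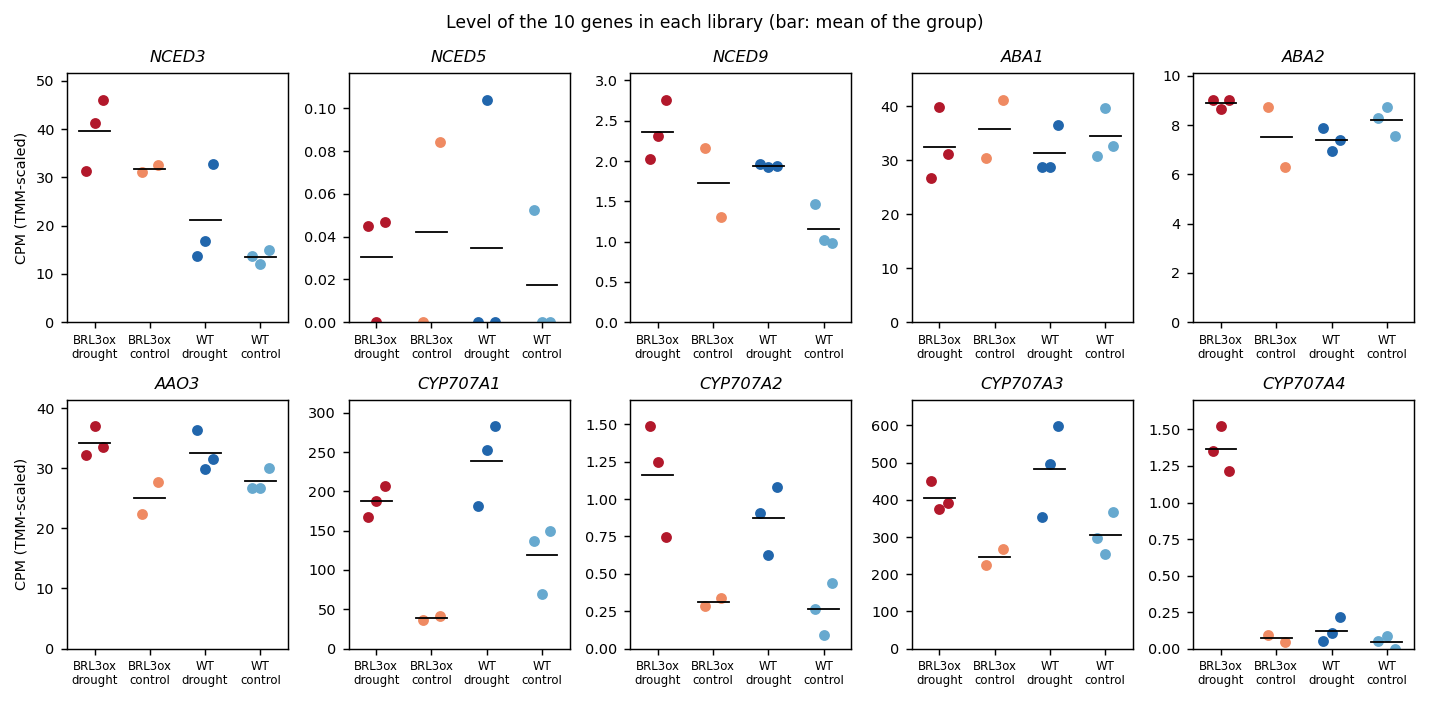
TMM-scaled CPM (vertical axes, each from 0) of the 10 genes in each of the 11 libraries, with groups along the horizontal axis, 1 point a library and a bar at the group mean. NCED3 stood at 31.1 CPM or more in all 5 BRL3ox libraries and in 1 WT library, and CYP707A4 exceeded 1 CPM only in the 3 BRL3ox drought libraries.

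By length-corrected level, 2 hydroxylases dominated the set. The median RPKM over the 11 libraries was 180 for CYP707A3 and 79.4 for CYP707A1, followed by 11.9 for ABA1, 11.4 for NCED3, 7.01 for ABA2 and 5.55 for AAO3. ABA1 and NCED3 were close in that order, and their ranges overlapped (10.2 to 15.8 RPKM for ABA1 and 4.43 to 16.9 RPKM for NCED3). The remaining genes were scarce, with median RPKM of 0.896 for NCED9, 0.268 for CYP707A2, 0.0548 for CYP707A4 and 0 for NCED5. No stretch of 45 bases, the length of the trimmed reads, in any of the 10 transcripts occurred exactly in an annotated transcript of another gene. This held even between CYP707A1 and CYP707A3, whose coding sequences were identical at 82.6% of aligned bases. Matches with mismatches were not searched. ABA2 overlaps AT1G52330, and both ABA2 and AAO3 overlap a further gene that had 0 counts in every library. The strand setting of the counting was not given in the sources used here.

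NCED3 (AT3G14440, chromosome 3 from 4831286 to 4834015, a single exon) encodes the cleavage dioxygenase best known for drought-induced ABA synthesis. Its level was 31.4, 41.3 and 46.1 CPM in BRL3ox drought roots, 31.1 and 32.5 CPM in BRL3ox control roots, 13.6, 16.8 and 32.8 CPM in WT drought roots and 13.8, 12.1 and 14.9 CPM in WT control roots. Both BRL3ox control libraries were above all 3 WT control libraries, whereas in drought the highest WT library, replicate 3, was above the lowest BRL3ox library. The fold change of BRL3ox over WT was 2.35 in control conditions (log2 1.23, SE 0.30, 95% interval 0.56 to 1.90), with an unadjusted p of 0.00208 and an adjusted p of 0.0819 by edgeR. In drought it was 1.88 (log2 0.91, SE 0.27, 95% interval 0.31 to 1.51), with an unadjusted p of 0.00708 and an adjusted p of 0.0800 by edgeR. Both missed the adjusted threshold in this fit. DESeq2 put both below it, with adjusted p of 0.00644 in control conditions and 0.0259 in drought, and the adjusted p over all alternatives ran from 0.00644 to 0.379 and from 0.0155 to 0.225.

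Drought against control gave no call for NCED3. The log2 difference was 0.31 in BRL3ox roots (SE 0.30, 95% interval -0.35 to 0.98, edgeR adjusted p = 0.497) and 0.63 in WT roots (SE 0.28, 95% interval 0.014 to 1.25, edgeR adjusted p = 0.141). The WT difference rested on replicate 3 of the drought group: without it the log2 value was 0.17, while without replicate 1 it was 0.87 with an edgeR adjusted p of 0.0386. Leaving out WT drought replicate 3 also brought the genotype differences past the threshold, with a log2 value of 1.38 and an edgeR adjusted p of 0.0155 in drought, and 1.23 and 0.0343 in control conditions. The order of group means was BRL3ox drought, BRL3ox control, WT drought and WT control (39.6 ± 7.47, 31.8 ± 0.983, 21.1 ± 10.3 and 13.6 ± 1.40 CPM; SD, n = 3, 2, 3 and 3), and each neighbouring pair in that order overlapped.

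The other cleavage enzymes of the set were scarce. NCED9 (AT1G78390, chromosome 1 from 29490705 to 29492875), known mainly from seeds, had 18 to 59 counts a library. It stood at 2.03, 2.31 and 2.76 CPM in BRL3ox drought roots and 2.16 and 1.31 CPM in BRL3ox control roots, and at 1.97, 1.92 and 1.94 CPM in WT drought roots and 1.47, 1.02 and 0.980 CPM in WT control roots. Drought and control libraries did not overlap in WT, and did in BRL3ox. The WT difference was 0.75 on the log2 scale (SE 0.26) with an edgeR adjusted p of 0.0678, and the BRL3ox one 0.45 (SE 0.27) with 0.269, so neither passed. NCED5 (AT1G30100, chromosome 1 from 10571310 to 10573365) had 0 to 2 counts a library and 7 in all, too few for the low-count filter, and it was not tested.

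ABA1, ABA2 and AAO3 carry the steps on either side of cleavage. ABA1 (AT5G67030, chromosome 5 from 26753469 to 26757402) lay at 26.6, 39.8 and 31.1 CPM in BRL3ox drought, 30.4 and 41.1 CPM in BRL3ox control, 28.8, 28.7 and 36.6 CPM in WT drought and 30.8, 39.7 and 32.6 CPM in WT control roots. All 4 groups overlapped. The 4 pairwise log2 differences of ABA1 ran from -0.14 to 0.06, and the 95% intervals stayed between -0.57 and 0.49. ABA2 (AT1G52340, chromosome 1 from 19489794 to 19491650) lay between 6.29 and 9.02 CPM in all libraries, and its differences ran from -0.15 to 0.26, with 95% intervals between -0.46 and 0.58. Neither was called in any comparison.

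AAO3 (AT2G27150, chromosome 2 from 11601727 to 11608450), the oxidase of the last step, was the synthesis gene nearest to a drought call. It reached 32.1, 37.0 and 33.6 CPM in BRL3ox drought roots, against 22.4 and 27.7 CPM in BRL3ox control roots, and 36.3, 29.9 and 31.5 CPM in WT drought roots, against 26.7, 26.8 and 30.1 CPM in WT control roots. Drought libraries of BRL3ox lay above both of its control libraries, and in WT 1 drought library lay below the highest control library. The fold change in BRL3ox was 1.37 (log2 0.45, SE 0.12, edgeR adjusted p = 0.0256), which passed the test and not the fold of 1.5. It did pass the fold without BRL3ox control replicate 3, at a log2 value of 0.61 with an edgeR adjusted p of 0.0318. In WT the log2 difference was 0.23 (SE 0.11, edgeR adjusted p = 0.174). Among the 5 synthesis genes tested, 0 were called in the main edgeR fit in any of the 5 comparisons. At an unadjusted p under 0.05 there was 1 in BRL3ox drought against control (AAO3), 2 in WT drought against control (NCED3 and NCED9), 1 in each genotype comparison (NCED3) and 0 in the interaction. DESeq2 and the edgeR fit with a replicate block each called NCED3 in both genotype comparisons.

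**Figure D2:**
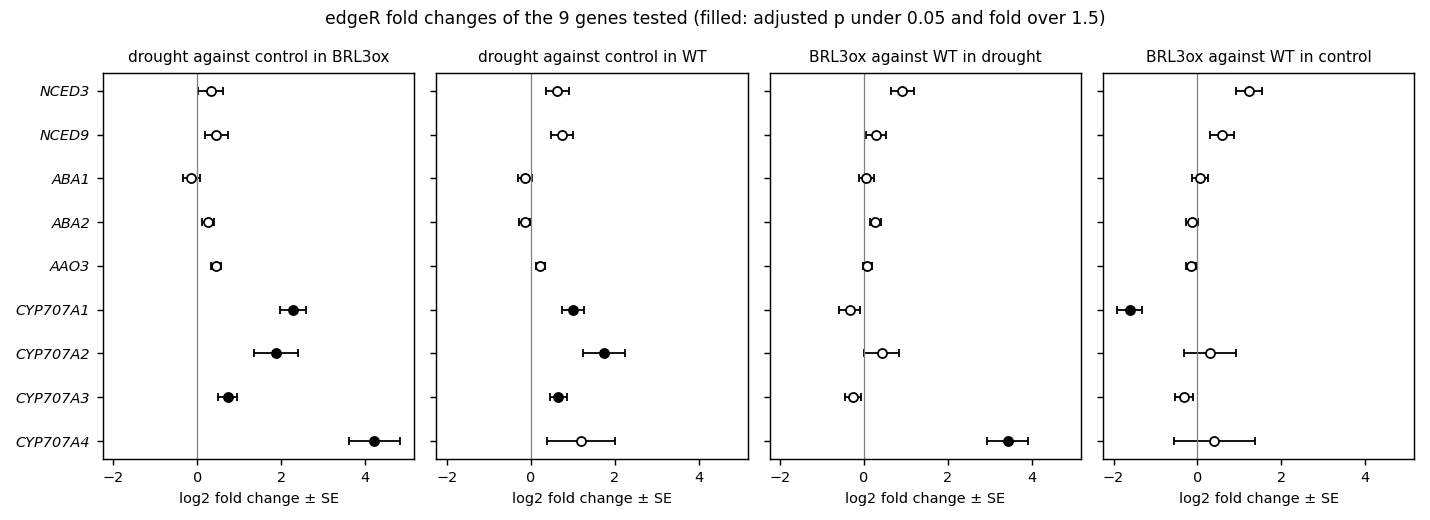
Log2 fold change with its standard error (horizontal axis) of the 9 tested genes (rows) in the 4 pairwise comparisons (panels), from the edgeR fit to all 11 libraries. Filled points passed the adjusted p of 0.05 and the fold of 1.5. CYP707A1 and CYP707A3 passed with drought in both genotypes and CYP707A1 in control conditions. The filled points of CYP707A2 and CYP707A4 were favoured by the low-count filter, which these genes passed through the drought libraries alone.

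CYP707A1 (AT4G19230, chromosome 4 from 10521259 to 10523961) showed the widest swing of the abundant members. It lay at 168, 188 and 207 CPM in BRL3ox drought roots, against 35.9 and 41.6 CPM in BRL3ox control roots. In WT it lay at 181, 252 and 283 CPM in drought, against 137, 69.9 and 150 CPM in control conditions. Drought and control libraries did not overlap in either genotype, and the BRL3ox control libraries lay below every WT control library. Drought raised it 4.84-fold in BRL3ox roots (log2 2.27, SE 0.31, edgeR adjusted p = 0.0012), and this call held in each of the 11 leave-outs. It was 2.01-fold higher with drought in WT roots (log2 1.01, SE 0.25, edgeR adjusted p = 0.0218), a call lost without WT drought replicate 2 (log2 0.97, adjusted p = 0.062) or replicate 3 (log2 0.87, adjusted p = 0.0778).

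In watered roots CYP707A1 was lower in BRL3ox than in WT, at 0.327 of the WT level (log2 -1.61, SE 0.30, edgeR adjusted p = 0.0449). The call sat at the threshold. It held without WT drought replicate 1 and without WT control replicate 2, and was lost when any of the other 9 libraries was left out, with log2 values of -1.73 to -1.41 and adjusted p of 0.0551 to 0.352. In drought the genotypes overlapped, and the log2 difference was -0.35 (SE 0.25, edgeR adjusted p = 0.445). The order of group means was WT drought (239 ± 52.2 CPM), BRL3ox drought (188 ± 19.5 CPM), WT control (119 ± 42.8 CPM) and BRL3ox control (38.8 ± 4.07 CPM; SD, n = 3, 3, 3 and 2). The first pair overlapped, and each later pair was apart. The drought response differed between BRL3ox and WT by 1.27 on the log2 scale (SE 0.39), with an unadjusted p of 0.00779 and an edgeR adjusted p of 0.318, short of the threshold. Without WT control replicate 2 the interaction was 1.53 and passed it.

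The levels of CYP707A1 ran with those of touch- and wound-induced transcripts, which plants raise within minutes of handling. Summed over 7 such genes (TCH2, TCH3, TCH4, CML38, WRKY40, ZAT12 and JAZ10), the level was 4963, 4643 and 5057 CPM in BRL3ox drought roots, 1666 and 2078 CPM in BRL3ox control roots, 4839, 6106 and 6664 CPM in WT drought roots and 3521, 2323 and 4770 CPM in WT control roots. The library with the lowest CYP707A1 of the WT control group, replicate 2, was also the lowest of that group for this sum. Of the 7 genes, all with at least 10 counts in every library, 4 were called higher with drought in BRL3ox, 2 higher with drought in WT, 0 between genotypes in drought (2 at an unadjusted p under 0.05, and 1 by DESeq2) and 1 lower in BRL3ox control than in WT control. In that last comparison 5 were at an unadjusted p under 0.05 and 5 were called by DESeq2, 0 to 5 were called with a library left out, and the list median was -1.09 on the log2 scale. The part of this list in the CYP707A1 differences was not tested. The 3 other tested genes whose log2 CPM followed CYP707A1 most closely over the 11 libraries were KUP9 (r = 0.992), CHB3 (r = 0.992) and SRO5 (r = 0.991), a description over libraries that share their treatment.

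**Figure D3:**
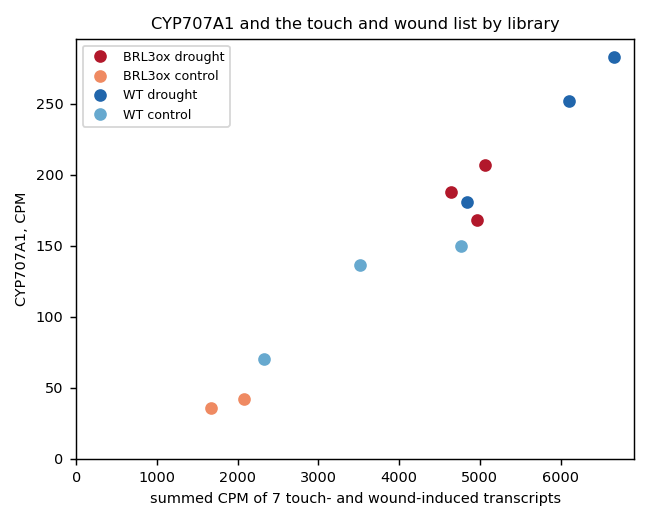
CYP707A1 in CPM (vertical axis) against the summed CPM of 7 touch- and wound-induced transcripts (horizontal axis), 1 point for each of the 11 libraries, both axes from 0. The 2 BRL3ox control libraries, at 1666 and 2078 CPM for the sum, had the lowest CYP707A1, and WT control replicate 2 came next on both axes.

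CYP707A3 (AT5G45340, chromosome 5 from 18368532 to 18371021), a hydroxylase known for its induction by dehydration and rewatering, was the most abundant member. It lay at 450, 375 and 390 CPM in BRL3ox drought roots, against 224 and 267 CPM in BRL3ox control roots. In WT roots it lay at 355, 498 and 598 CPM in drought, against 297, 253 and 367 CPM in control conditions. The groups were apart in BRL3ox, and in WT the lowest drought library was below the highest control library. The rise was 1.65-fold in BRL3ox (log2 0.72, SE 0.22, edgeR adjusted p = 0.0393) and 1.58-fold in WT (log2 0.66, SE 0.19, edgeR adjusted p = 0.0379). Each call was lost in 7 of 11 leave-outs, where the log2 value ran from 0.61 to 0.85 in BRL3ox and 0.48 to 0.66 in WT. In BRL3ox these were WT drought replicate 2, WT control replicate 1 and all 5 libraries compared. In WT they were WT drought replicates 2 and 3, WT control replicates 1 and 2, BRL3ox drought replicate 3 and both BRL3ox control libraries. Between genotypes the log2 difference was -0.25 in drought (SE 0.19) and -0.32 in control conditions (SE 0.22), with edgeR adjusted p of 0.465 and 0.539. The gene followed CYP707A1 across libraries (r = 0.893, n = 11). Within WT drought, WT control and BRL3ox control its libraries had the order of the touch and wound sum, and within BRL3ox drought they did not. The part of that list in the CYP707A3 differences was not tested either.

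The stretch upstream of CYP707A1 and CYP707A3 is shown because the 2 most abundant hydroxylases share it. Within the 250 bases before each annotated start, runs of 23, 11 and 10 bases occurred in both genes in the same order. They enclose CACACG, which is CGTGTG on the opposite strand (a site known for the brassinosteroid-regulated factor BZR1), and the G-box CACGTG, which holds the ABA-response core ACGTG on both strands. These letters are in capitals below. The CYP707A1 stretch lies at chr4:10521198-10521246 (plus strand, 61 to 13 bases before the start) and the CYP707A3 stretch at chr5:18371127-18371183 (minus strand, 162 to 106 bases before the start), read 5′ to 3′ from the TAIR10.1 genome of RefSeq.
CYP707A1: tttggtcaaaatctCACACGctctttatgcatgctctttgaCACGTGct
CYP707A3: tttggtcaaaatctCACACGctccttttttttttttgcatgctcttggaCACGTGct

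Of the 10 members, 5 held ACGTG in the 250-base window on either strand (NCED9, ABA1, CYP707A1, CYP707A3 and CYP707A4). So did 22.9% of the 27443 windows of nuclear protein-coding genes, the background for each motif here. CACGTG occurred in 3 members (NCED9, CYP707A1 and CYP707A3) and 6.49% of all windows, and CGTGTG in 2 members (CYP707A1 and CYP707A3) and 5.37% of all windows. CGTGCG was in 0 members and 1.57% of windows. ACCGAC, the dehydration-responsive element, was in 1 member (ABA2) and 4.7% of windows, and the E-box CANNTG, which includes the G-box, was in 7 members and 55.3% of windows. The NCED3 and CYP707A2 windows held neither ACGTG nor ACCGAC. The matches of NCED9 (chr1:29492876-29492921, minus strand) and CYP707A4 (chr3:6676625-6676669, minus strand) are printed with 20 bases on each side, the ACGTG letters on either strand in capitals, as the scarce members of each arm that hold the core. A match is a description of letters and not of a bound site.
NCED9: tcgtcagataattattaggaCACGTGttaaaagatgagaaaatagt
CYP707A4: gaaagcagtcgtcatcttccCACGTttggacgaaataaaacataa

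CYP707A4 (AT3G19270, chromosome 3 from 6673689 to 6676521), usually the least expressed hydroxylase, was counted above a handful of reads in 1 group. It had 30, 33 and 26 counts in BRL3ox drought libraries, against 2 and 1 counts in BRL3ox control libraries, and 1, 2 and 4 counts in WT drought libraries, against 1, 2 and 0 counts in WT control libraries. In CPM these were 1.35, 1.52 and 1.22, against 0.0958 and 0.0422, and 0.0504, 0.104 and 0.216, against 0.0525, 0.0886 and 0. The BRL3ox drought libraries stood apart from the other 8. The gene passed the low-count filter only through those 3 libraries, and a gene that passes in this way had to differ. From summed counts per depth, the level was 11.2 times higher in BRL3ox drought than in WT drought (89 against 7 counts, exact 95% interval 5.23 to 28.7) and 20.3 times higher than in BRL3ox control (89 against 3 counts, 6.71 to 100.1), intervals that cover counting error only. The fitted log2 differences were 3.42 (SE 0.49) and 4.22 (SE 0.61), and no support is drawn from their tests.

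In WT the drought difference of CYP707A4 was 1.20 on the log2 scale (SE 0.81, edgeR adjusted p = 0.345), on 7 against 3 counts. The interaction was 3.02 (SE 1.23), with an unadjusted p of 0.0326 and an edgeR adjusted p of 0.424, so a larger drought response in BRL3ox than in WT was not called. The filter favoured this difference too, since the gene passed it through the BRL3ox drought libraries alone. No support is drawn from its unadjusted p. The genes nearest to CYP707A4 over the 11 libraries were the heat-shock protein gene ATHSP22.0 (r = 0.975), MEE55 (r = 0.967) and AT2G19310 (r = 0.960). The gene made up 0.271 ± 0.0414% of the CYP707A RPKM in BRL3ox drought roots (SD, n = 3), so its call added little to the family sum.

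CYP707A2 (AT2G29090, chromosome 2 from 12494826 to 12499723), the hydroxylase best known from seed dormancy, was also near the floor. It had 33, 27 and 16 counts in BRL3ox drought libraries, against 6 and 8 counts in BRL3ox control libraries. In WT it had 18, 12 and 20 counts in drought, against 5, 2 and 8 counts in control conditions. All 6 drought libraries were above all 5 control libraries, and they were the only 6 with at least 10 counts, through which the gene passed the filter. Summed counts per depth were 3.71 times higher with drought in BRL3ox (76 against 14 counts, exact 95% interval 2.08 to 7.10) and 3.47 times higher in WT (50 against 15 counts, 1.92 to 6.66). Both intervals cover counting error only and leave out the spread between replicates. The fitted log2 differences were 1.87 (SE 0.52) and 1.75 (SE 0.49). No support is drawn from their tests, which the filter favoured, and each call was lost in 4 of 11 leave-outs. In BRL3ox these were drought replicates 1 and 2 and both control libraries (adjusted p 0.0571 to 0.158, log2 1.65 or more), and in WT drought replicates 1 and 3 and control replicates 1 and 2 (adjusted p 0.0565 to 0.105, log2 1.31 to 1.77). The genotypes overlapped in both conditions, with log2 differences of 0.42 in drought (SE 0.41) and 0.30 in control conditions (SE 0.61), neither called.

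Set beside each other per length, the NCED and CYP707A transcripts of the set differed in balance between the genotypes. NCED2, outside the set, is not in these sums. Its mean RPKM was 2.17 in BRL3ox drought, 0.281 in BRL3ox control, 2.97 in WT drought and 0.497 in WT control roots. The ratio with NCED2 included was not computed. The summed RPKM of NCED3, NCED5 and NCED9 was 12.5, 16.2 and 18.2 in BRL3ox drought, 12.4 and 12.6 in BRL3ox control, 5.90, 7.10 and 12.9 in WT drought and 5.76, 4.90 and 5.90 in WT control roots, with NCED3 making up between 84.6% and 94.9% of it. The summed RPKM of the 4 CYP707A genes was 301, 274 and 290 in BRL3ox drought, 127 and 150 in BRL3ox control, 260, 363 and 427 in WT drought and 210, 157 and 251 in WT control roots. The CYP707A sum was thus 24.2, 16.9 and 16.0 times the NCED sum in BRL3ox drought, 10.2 and 12.0 times in BRL3ox control, 44.0, 51.1 and 33.1 times in WT drought and 36.4, 32.1 and 42.5 times in WT control roots. All 5 BRL3ox libraries lay below all 6 WT libraries on this ratio, in both conditions. This was seen after the members' values were known, and is given with no test.

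The CYP707A1 share of the family sum was lower in the 2 watered BRL3ox libraries than in every other library. This share restates the CYP707A1 levels above, whose genotype call in control conditions was lost in 9 of 11 leave-outs. It is given with no test. CYP707A1 supplied 26.4, 32.4 and 33.8% of the CYP707A RPKM in BRL3ox drought, 13.4 and 13.1% in BRL3ox control, 33.0, 32.8 and 31.3% in WT drought and 30.8, 21.0 and 28.2% in WT control roots. CYP707A3 supplied nearly all of the rest, at 86.7 ± 0.203% in BRL3ox control (SD, n = 2) and 73.3 ± 5.05% in WT control roots (SD, n = 3). CYP707A2 and CYP707A4 together stayed below 1% in every group mean.

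**Figure D4:**
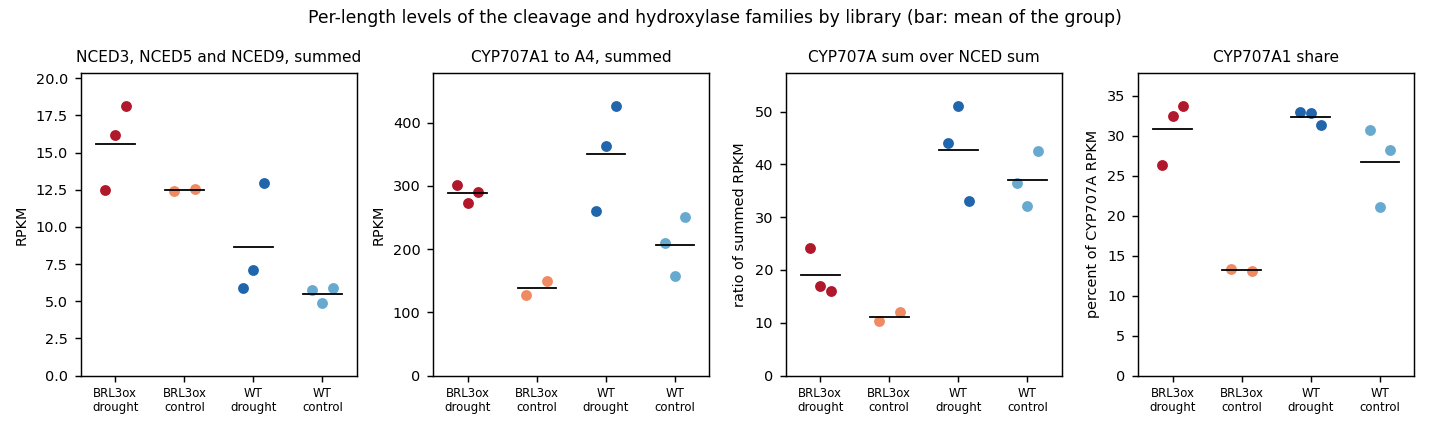
Summed RPKM of the 3 NCED members, summed RPKM of the 4 CYP707A members, the ratio of these sums, and the percentage of the CYP707A sum due to CYP707A1 (vertical axes from 0), by group, 1 point a library with a bar at the group mean. The ratio was 10.2 to 24.2 in the 5 BRL3ox libraries and 32.1 to 51.1 in the 6 WT libraries.

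Around the 10 members, 6 lists of neighbouring steps were read in the same fit. Among carotenoid cleavage dioxygenases outside the set, 5 of 6 genes were tested (NCED6 had 0 counts). Drought raised CCD1, which cleaves many carotenoids in the cytosol. The log2 difference was 1.04 in BRL3ox and 0.98 in WT (edgeR adjusted p = 0.00028 and 0.00022). NCED2, an NCED gene outside the set, rose by 2.94 in BRL3ox and 2.59 in WT (edgeR adjusted p = 0.0028 and 0.0022). CCD4 and CCD8, the second a strigolactone synthesis gene, passed in WT and not in BRL3ox (log2 -0.02 and 0.15 in BRL3ox, 0.65 and 1.07 in WT), and the difference between genotypes was not called for either (interaction adjusted p = 0.46 and 0.47). The CCD4 call held in 1 of 11 leave-outs. Between genotypes edgeR called 0 of the 5, with 2 at an unadjusted p under 0.05 in drought and 0 in control conditions, and DESeq2 called 1 and 0. NCED2 averaged 5.20 ± 1.04 CPM in BRL3ox drought and 0.673 ± 0.00308 CPM in BRL3ox control roots, and 7.10 ± 3.10 CPM in WT drought and 1.19 ± 0.537 CPM in WT control roots (SD over 2 or 3 libraries).

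Of 15 carotenoid precursor genes, 5 rose and 1 fell with drought in BRL3ox, and 2 rose and 1 fell in WT, beside the 16.1% and 12.4% of all genes called. ABA4, required for neoxanthin, rose by 0.86 in BRL3ox and 0.59 in WT on the log2 scale, and the carotene hydroxylase gene BCH1 by 1.33 and 0.70. The gene of the lycopene cyclase LYCB, which leads towards the precursors of ABA, fell by 0.84 in BRL3ox and 0.75 in WT. BCH2, CYP97C1 and LYCE passed in BRL3ox (log2 2.30, 1.58 and 1.54) and not in WT (0.41, 0.06 and -0.33), and CYP97C1 and LYCE belong to the branch that leads to lutein. The difference between genotypes was not called for BCH2 (interaction unadjusted p = 0.0223, edgeR adjusted p = 0.392) or CYP97C1 (0.0149 and 0.365), and LYCE passed the unadjusted threshold alone (0.00206 and 0.248). BCH2 and CYP97C1 had libraries with under 10 counts. BCH1 was the precursor called between genotypes in drought, at 21.3 ± 4.29 CPM in BRL3ox and 8.06 ± 0.679 CPM in WT (log2 1.40, edgeR adjusted p = 0.0086; SD, n = 3 each), and it held in each of the 11 leave-outs. In control conditions edgeR called 0 of the 15 between genotypes, with 4 at an unadjusted p under 0.05, and DESeq2 called 3. The list medians with drought were 0.54 in BRL3ox and 0.06 in WT, beside -0.02 for all genes in each.

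Aldehyde oxidases other than AAO3, and ABA3, which matures their molybdenum cofactor, gave 1 call in 4 genes: AAO4 rose in WT drought (log2 1.73, edgeR adjusted p = 0.0324, with 0.78 in BRL3ox not called and an interaction p of 0.198) at 0.731 ± 0.122 CPM against 0.212 ± 0.138 CPM (SD, n = 3 each). Of the genes that glucosylate ABA or release it from its glucose ester, 5 of 6 were tested (UGT71B6 had 0 counts). The glucosidase gene BGLU33 rose with drought by 2.12 in BRL3ox and 1.96 in WT, and the glucosyltransferase gene UGT71B8 by 2.83 in BRL3ox, on 0.838 CPM against 0.114 CPM. In WT the UGT71B8 difference was 1.59 (edgeR adjusted p = 0.106), and the interaction was not called (unadjusted p = 0.236). AAO4 and UGT71B8 had libraries with under 10 counts, and in control libraries they reached at most 0.575 and 0.158 CPM. They passed the low-count filter mainly through drought libraries, which favoured their calls with drought, and no support is drawn from those. Of the ABA transporter genes, 5 of 6 were tested (ABCG31 was below the filter). ABCG30 rose in both genotypes (0.84 in BRL3ox and 1.20 in WT), the exporter genes DTX50 in BRL3ox (1.91, with 0.79 in WT not called) and ABCG25 in WT (0.66, with 0.28 in BRL3ox not called). Neither interaction was called (unadjusted p = 0.035 and 0.203). Between genotypes edgeR called 0 genes of these 3 lists in either condition, with 1, 2 and 2 at an unadjusted p under 0.05 in drought and 1, 0 and 2 in control conditions, and DESeq2 called 1 transporter gene in each. DTX50, which lay at 480, 127, 549 and 317 CPM as group means in BRL3ox drought, BRL3ox control, WT drought and WT control, had a genotype difference in control conditions of -1.31 with an edgeR adjusted p of 0.103.

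Transcripts that ABA itself is known to raise gave the most calls. Of 10, drought raised 6 in BRL3ox and 7 in WT, where 9.14% and 7.54% of all genes were called higher. The list medians were 1.62 and 1.55 on the log2 scale beside -0.02 for all genes in each. ABI1 went the other way, with drought libraries below all control libraries in both genotypes. Its log2 difference was -0.49 in BRL3ox and -0.26 in WT (edgeR adjusted p = 0.0317 and 0.179), not called in either. RAB18, a dehydrin gene, averaged 739 CPM in BRL3ox drought against 46.0 CPM in BRL3ox control, and 283 CPM in WT drought against 11.2 CPM in WT control roots. Between genotypes 6 were higher in BRL3ox in drought (RD29B and the phosphatase genes HAI1, HAI2, HAI3, ABI1 and ABI2) and 3 in control conditions (HAI1, ABI1 and the transcription factor gene ABF3), and 0 were lower, beside 3.51% and 0.772% of all genes called. At an unadjusted p under 0.05 there were 9 in each, a level for which the share of all genes is not given. DESeq2 called 7 in each, where over all genes it called 1318 in drought and 867 in control conditions. The medians of the list were 0.99 in drought and 0.98 in control conditions. HAI1, a phosphatase of the ABA receptor pathway, was the member of this list called in all 4 comparisons, with log2 differences of 1.53 and 1.98 with drought in BRL3ox and WT, and of 1.19 and 1.63 between genotypes in drought and control. Those genotype counts moved with single libraries, between 0 and 6 in drought and 0 and 5 in control over the 11 leave-outs.

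**Figure D5:**
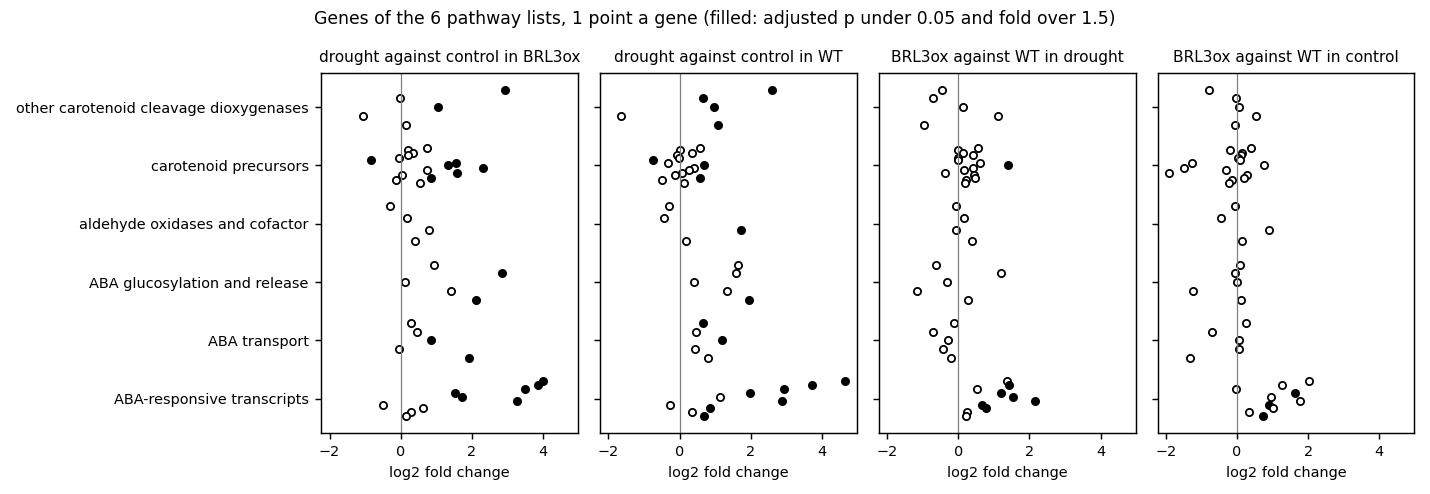
Log2 fold change (horizontal axis) of each tested gene of the 6 lists (rows, 1 point a gene) in the 4 pairwise comparisons (panels), from the edgeR fit. Filled points passed the adjusted p of 0.05 and the fold of 1.5. In BRL3ox against WT these were 1 carotenoid precursor and 6 ABA-responsive genes in drought, and 3 ABA-responsive genes in control conditions.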

How the data were processed

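RNA of 11 root samples was sequenced from stranded mRNA libraries. The authors deposited whole-number counts per gene, without normalization, after mapping 50-base reads, trimmed to 45, to TAIR10 with HISAT2 2.1.0 and counting with HTSeq 0.9.1 (versions from the submitters' processing notes). The annotation release and the strand setting are not given in the sources used here. Each file held 33341 gene identifiers, and 33056 matched the RefSeq TAIR10.1 annotation, the source of coordinates and exon lengths. HTSeq's classes off genes were left out (10.5 to 12.9% of a library).

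Counts were fitted with edgeR 4.0.16 (R 4.3.3), by the quasi-likelihood test with TMM scaling, filterByExpr (20718 genes kept) and 1 coefficient for each of 4 groups. Calls needed a Benjamini-Hochberg adjusted p under 0.05 and a fold over 1.5, and the interaction an unadjusted p under 0.0025. With 7 residual degrees of freedom and a common biological coefficient of variation of 0.159, 2 or 3 replicates a group limited the precision. Standard errors are the log2 fold change over the root of F. The step was tested on simulated data. Replicate libraries differed beyond sampling noise (chi-square per degree of freedom 8.59 to 44.7). Alternatives were RLE scaling, 2 other filters, a replicate block, DESeq2 1.42.0, the 2 groups alone, a fold of 2, and each sample left out.

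The members and the lists were chosen with earlier results of these data known. Named were all 10 members, BRL3 as a check, and list genes called in a pairwise comparison, with the rest as counts.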

Additional observations from a re-analysis of the deposited data

Results flagged for a closer look

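LYCE, the lycopene cyclase gene of the lutein branch, was flagged because its drought response differed between BRL3ox and WT by the interaction test. It averaged 3.69 ± 1.02 CPM in BRL3ox drought, 1.26 ± 0.177 CPM in BRL3ox control, 2.42 ± 0.521 CPM in WT drought and 3.06 ± 1.09 CPM in watered WT roots (values are mean ± SD over 3, 2, 3 and 3 libraries). The interaction was 1.88 on the log2 scale (SE 0.46), with an unadjusted p of 0.00206 and an edgeR adjusted p of 0.248, and it was kept in 3 of 11 leave-outs.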

How the results depend on the processing

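Over the 9 tested members and 5 comparisons, 242 of 251 values kept their direction and call under the alternatives that kept all libraries, 4 lost a call, 5 gained one and 0 changed sign. With 1 library left out, 432 of 495 did so, 33 lost a call, 5 gained one and 25 changed sign, all of the last among values that were not called. The number of members called with drought in BRL3ox was 4 and fell to 2 with at least 10 counts required in every sample, which removed CYP707A2 and CYP707A4 from the test, and lay between 2 and 4 with a library left out. With drought in WT it was 3, 0 in a fit to the 2 groups alone, and 0 to 3 with a library left out. For BRL3ox against WT in drought it was 1, with 0 under the filter of 10 counts, 2 with DESeq2 (NCED3 added), and 1 to 2 with a library left out. In control conditions it was 1, with 2 under DESeq2 (NCED3 added), 0 with the 2 groups alone, and 0 to 1 with a library left out. The interaction gave 0, 1 under DESeq2 (CYP707A1), and 0 to 1 with a library left out. Same-numbered replicates tended to deviate together (15 pairs, correlations -0.0881 to 0.412, mean 0.15, 11 over 0.1, and 10 of 11 samples closest to their own number). The labels do not say what a number stands for, so the main fit has no block. A shared replicate effect may therefore remain in it. With the replicate block, NCED3 joined the calls, giving 2 members called in each genotype comparison, and all genes called went to 1233 in drought and 718 in control.

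Over all genes, counts that moved more than 1.5 times were as follows. A fold of 2 gave 2024 in place of 3340 calls with drought in BRL3ox, 1432 in place of 2565 in WT and 343 in place of 728 between genotypes in drought. DESeq2 gave 1318 in drought and, in place of 160, 867 in control conditions, and 435 in place of 197 for the interaction, where an adjusted p under 0.05 left 2. In control conditions no filter gave 306 and the 2 groups alone 2. With a library left out the 5 counts ran from 1475 to 3709, 1658 to 3323, 108 to 1048, 3 to 917 and 61 to 303, and the highest control count came without WT control replicate 2.

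Signs that turned with a library left out gave these log2 ranges. ABA1 ran from -0.34 to 0.10 with drought in BRL3ox, -0.12 to 0.18 between genotypes in drought, -0.18 to 0.25 in control and -0.20 to 0.23 in the interaction. Between genotypes in control, ABA2 ran from -0.39 to 0.082, CYP707A2 from -0.15 to 0.86 and CYP707A4 from -0.21 to 1.17. In the interaction NCED3 ran from -0.56 to 0.15, NCED9 from -0.61 to 0.10, CYP707A2 from -0.45 to 0.56 and CYP707A3 from -0.12 to 0.24. Of 47 calls of list genes, 19 held in every leave-out and 28 were lost in at least 1, with 0 changes of sign. The causes were not tested. At 0 to 33 counts a library, CYP707A2, CYP707A4 and NCED5 allow no statement on small differences.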
